A study of Mus musculus with 57 samples.

Results

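Single mouse T helper 2 (Th2) cells in which Pparg was read were compared with single cells in which it was listed at 0. Pparg encodes PPARγ, a nuclear receptor. The cells were chosen by the deposited Pparg value itself: 21 cells had 10 TPM or more (an abundance per transcript length, scaled to a fixed total in each cell), and 26 cells had 0. These 47 cells came from 56 single cells in all. The 7 cells with a value between these limits were not used, and 2 cells, T3_2 and T3_5, were left out by the rule. T3_5 had 8395 genes at 1 TPM or more, the most of any cell, and T3_2 had 3096. All cells share 1 background: wild-type C57BL/6 mice, 8 weeks old, CD4+ T cells of the spleen, steered towards Th2 in culture with IL-4 and an antibody against interferon gamma for 5 days, with IL-2 added after 2 days, and stimulated again with antibodies to CD3 and CD28. Isolation used the Fluidigm C1, in which single cells are processed in microfluidic chambers. No label names a separate animal or culture, so the cells count as 1 sample, and no test between cells was run: every difference below describes these 47 libraries.

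PPARγ binds DNA as a pair with a retinoid X receptor (RXR) and is switched on by fatty acids and related lipids. It is best known as the master regulator of fat cell formation and fatty acid storage. In T cells it is known from Th2 cells, where the IL-4 signal induces it and where it is tied to type 2 cytokine output, and from regulatory T cells of fat tissue. Its DNA element, DR1, is a pair of AGGTCA half-sites in tandem with 1 base between them.

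The promoters of Pparg and of Cdk1, the gene with the largest difference, are shown because the comparison turns on these genes. Each window runs from 250 bases before to 50 bases after a start site, 5′ to 3′ on the gene's strand, from RefSeq on GRCm38.p6. Pparg has 3 start sites in that table on the plus strand of chromosome 6, and the deposited table gives 1 value for the gene, so which start was used cannot be read. The first window (chr6:115360894-115361193) and the second (chr6:115362099-115362398) each hold 1 half-site AGGTCA, in capitals, at positions -28 and -9 from the start. The Cdk1 window (chr10:69352863-69353162, minus strand) holds no half-site. In it the capitals mark 2 matches to TTTGAA, the core of the cell cycle genes homology region known from promoters of mitotic genes, at -71 and -15.
Pparg first start: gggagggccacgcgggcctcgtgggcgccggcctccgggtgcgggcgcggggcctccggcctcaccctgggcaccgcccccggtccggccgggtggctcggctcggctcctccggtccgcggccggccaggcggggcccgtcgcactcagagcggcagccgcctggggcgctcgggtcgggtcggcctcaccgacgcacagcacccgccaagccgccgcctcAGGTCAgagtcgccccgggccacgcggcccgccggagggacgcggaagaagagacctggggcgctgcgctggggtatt
Pparg second start: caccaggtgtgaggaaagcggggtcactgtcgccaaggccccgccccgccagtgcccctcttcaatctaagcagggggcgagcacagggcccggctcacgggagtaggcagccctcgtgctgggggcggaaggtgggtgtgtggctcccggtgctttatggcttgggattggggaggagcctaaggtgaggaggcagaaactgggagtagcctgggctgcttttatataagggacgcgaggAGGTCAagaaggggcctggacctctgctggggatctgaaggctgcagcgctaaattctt
Cdk1: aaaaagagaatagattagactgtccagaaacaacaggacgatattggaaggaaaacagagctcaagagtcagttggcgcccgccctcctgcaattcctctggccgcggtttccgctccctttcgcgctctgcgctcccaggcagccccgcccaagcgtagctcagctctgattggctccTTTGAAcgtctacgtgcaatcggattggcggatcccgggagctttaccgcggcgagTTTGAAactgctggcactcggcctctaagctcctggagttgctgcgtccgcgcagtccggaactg

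On both strands, 16.3% of 32851 RefSeq promoter windows held AGGTCA, 17.9% held TTTGAA and 0.0396% held the exact DR1 repeat. The third Pparg window (chr6:115421816-115422115) held no half-site but did hold TTTGAA, at -95, the same letters that are marked in the Cdk1 window. Of the 12 genes with the largest difference towards cells with Pparg, 9 matched a promoter in the table: none held a half-site, and Cdk1, 2700094K13Rik, Snap23 and Il5 held TTTGAA. Of the 12 genes at the other end, 11 matched: Akr1c18, D6Wsu116e, Herpud1 and Atf1 held a half-site and none held TTTGAA. No promoter of either group held the DR1 repeat. A match is a string of letters in a short window and not a binding site.

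Pparg in the 21 cells ran from 11 TPM through a median of 141 TPM to 942 TPM, with a mean of 230 ± 252 (SD, n = 21). These values chose the cells and carry no test. Just inside the limit lay cells with 11 and 13 TPM, and just outside it cells with 9 and 6 TPM. The other 5 cells that were not used had 1 or 2 TPM. A value of 0 can be a transcript lost in capture or amplification, so the 26 cells are cells in which Pparg was listed at 0, not cells shown to lack it. TPM keeps no depth, and the depth of each cell is unknown.

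Cells with Pparg were spread unevenly over the 5 sets in which the titles number the cells, T1 to T5, whose meaning the labels do not give. Set T5 held 9 cells with Pparg and 2 without, so that 81.8% had it (exact Clopper-Pearson 95% interval 48.2 to 97.7, counting error only). Set T2 held 2 and 8 cells, which is 20% (2.52 to 55.6), and set T1 held 1 and 4. Set T3 held 5 and 4 cells, and set T4 held 4 and 8. A difference between the groups can therefore carry a difference between sets. For the genes and lists the comparison turns on, the value with set as a term is added, or the sign in the 4 sets, T2 to T5, that held at least 2 cells of each kind.

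**Figure D1:**
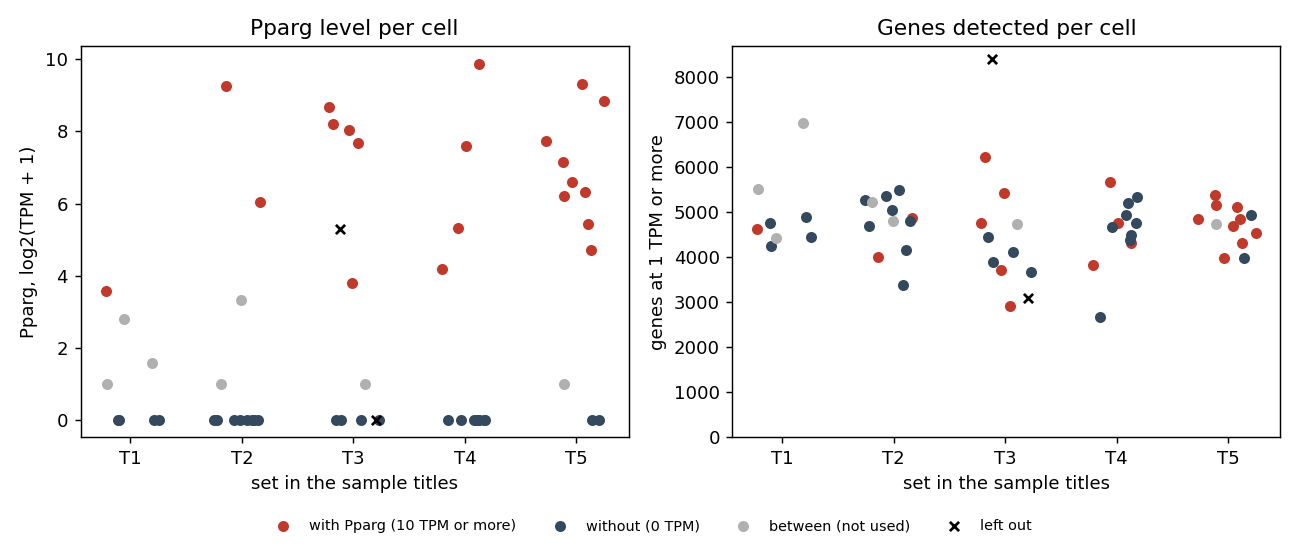
Left, Pparg level of each of the 56 cells on a log2(TPM + 1) axis by set; right, the number of genes at 1 TPM or more in each cell. Points are cells, coloured by group, with the 2 cells left out as crosses: set T5 holds 9 of the 21 cells with Pparg, and the numbers of genes detected overlap between the groups.

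The number of genes detected overlapped between the groups. Cells with Pparg had 2905 to 6211 genes at 1 TPM or more, with a median of 4749 and a mean of 4664 ± 739 (SD, n = 21). Cells without it had 2679 to 5481 genes, with a median of 4672.5 and a mean of 4538 ± 658 (SD, n = 26). The difference of 126 genes was small beside the SD of 695 within the groups, and its sign was not the same in every set (-335 in T2, 576 in T3). All 8 T cell markers, among them Cd3d, Cd3e and Cd4, were in the table. Their summed level was 1507 to 10498 TPM with Pparg and 540 to 13134 TPM without. Cd3d and Cd3e were detected in every cell of both groups. Cd4 was detected in 12 of 21 cells with Pparg and 17 of 26 without, at a median of 4 TPM in both. Of the markers of other cell types, 1 per type was in the table: Lipe of fat cells was detected in 2 and 2 cells (with and without Pparg), Cd68 of macrophages in 3 and 5, Cd74 of B cells in 13 and 15, Cpa3 of mast cells in 0 and 2, Cd8b1 of CD8 T cells in 0 and 0, and Alas2 of red cell precursors in 1 and 0.

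Over 7206 genes detected in at least 10 of the 47 cells, the measure was the difference of mean log2(TPM + 1), cells with Pparg minus cells without. This scale understates the change of low genes. The median difference over all genes was 0.06. A difference of at least 1.5 was taken as past the fold, which is a rule of size and no test: 215 genes (2.98%) were past it on the higher side and 124 (1.72%) on the lower side. With set as a term these became 379 (5.26%) and 185 (2.57%), of which 159 and 80 were also past it without the term. Genes named below as past the fold with set as a term stand beside these larger shares. The typical spread of a gene over these cells was an SD of 2.48 on the same scale. Cdk1 was the 1 gene of the 7206 whose difference was larger than the SD of log2 values in both groups. No gene separated the groups without overlap.

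Cdk1, the kinase that drives entry into mitosis, had the largest difference. It was detected in 18 of 21 cells with Pparg (85.7%, 63.7 to 97.0) and in 9 of 26 without (34.6%, 17.2 to 55.7). Its level ran from 0 through a median of 89 TPM to 548 TPM with Pparg, and from 0 through a median of 0 to 378 TPM without. The ranges overlapped, but most cells without Pparg were at 0 and most cells with it were not. The difference was 3.53, or 3.46 with set as a term. Within sets it was largest in T3 (5.05) and T4 (4.09) and smaller in T5 (2.29) and T2 (1.62). In T3 the 4 cells without Pparg were all listed at 0 for Cdk1.

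**Figure D2:**
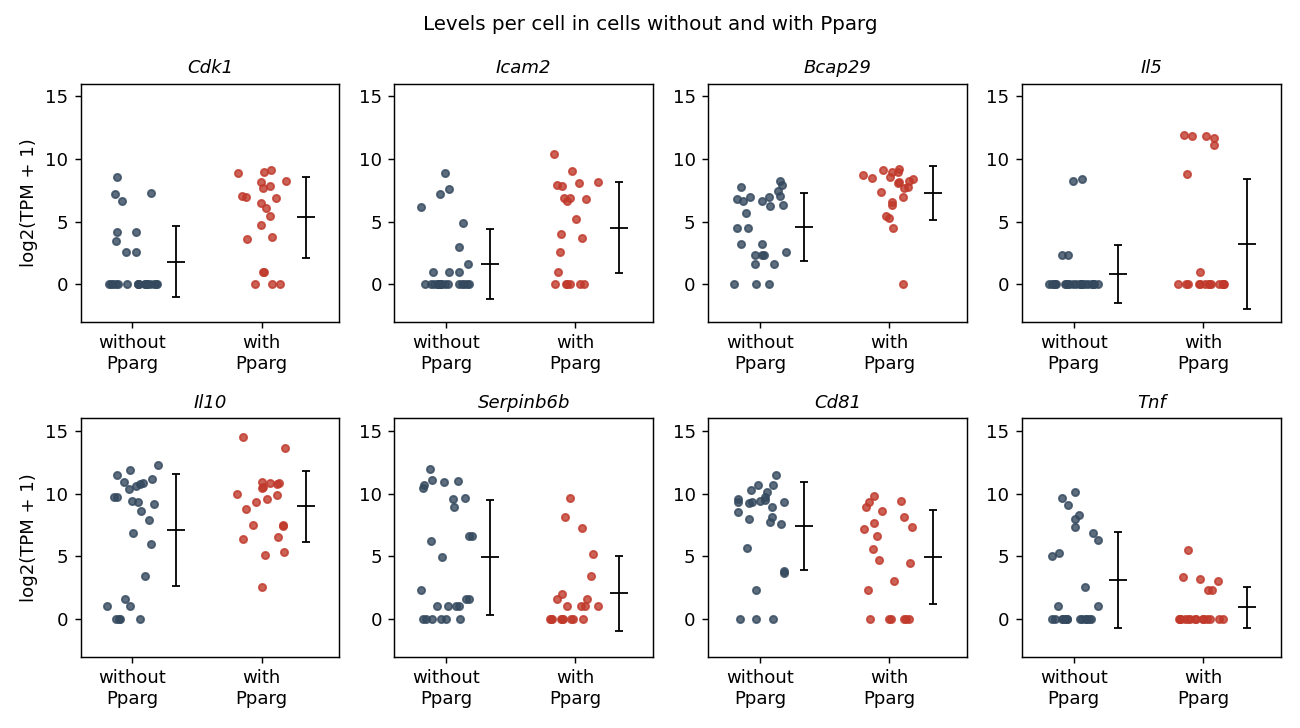
Level of 8 genes in each cell without (26 cells) and with Pparg (21 cells) on a log2(TPM + 1) axis; points are cells, the dash is the mean and the bar is ± 1 SD. Cdk1, Icam2, Bcap29, Il5 and Il10 have the higher mean in cells with Pparg and Serpinb6b, Cd81 and Tnf the lower, and for each gene the groups overlap.

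Among the 11 genes that followed on the higher side, 4 others kept their sign in all 4 sets. Icam2, an adhesion ligand of the integrin LFA-1, ran to 1330 TPM with a median of 36 in cells with Pparg, and to 479 TPM with a median of 0 without. Its difference was 2.90, with 2.87 under the set term, and it was detected in 15 of 21 and 10 of 26 cells. Within sets it was 3.64 in T4 and 4.89 in T5, but 0.83 in T2 and 0.61 in T3. In T3 Icam2 was detected in 2 of 5 cells with Pparg and in 3 of 4 without. Bcap29, a membrane protein of the endoplasmic reticulum (ER), was detected in 20 and 23 cells but at medians of 263 and 36 TPM, a difference of 2.70 (2.49 with the set term). Nearly all cells had some Bcap29, but it was at 10 TPM or more in 20 of 21 and 15 of 26 cells. The contrast thus lay in part in cells without Pparg that had low values. Within T2 and T5 the difference of Bcap29 was 0.60 and 0.56. Yipf5, a membrane protein of the ER and Golgi, differed by 2.57 (medians 95 and 6 TPM), and Fundc2, of the mitochondrial outer membrane, by 2.53 (medians 66 and 8.5 TPM). With the set term they differed by 2.48 and 3.12, and within T2 Fundc2 differed by 0.60.

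The remaining genes at the high end did not keep their sign in all 4 sets. Mrpl40, a mitochondrial ribosomal protein, was detected in every cell with Pparg, from 11 to 1162 TPM with a median of 296, and in 22 of 26 without, with a median of 134.5. Its difference was 2.71, yet -0.69 within T5. Adk, adenosine kinase, differed by 2.76 (medians 116 and 2 TPM) and by -0.25 within T4. The selenoprotein gene 2700094K13Rik, now Selenoh, differed by 2.76 and by -0.14 within T5. Nsmce4a, of the SMC5/6 DNA repair complex, differed by 2.72 and by -0.87 within T5. Snap23, a SNARE of exocytosis, differed by 2.49 and by -1.93 within T2. Cpsf4, of the cleavage and polyadenylation complex, and Il5, described below, were the least even and kept their sign in 2 of 4 sets. Cpsf4 differed by 2.43 overall but by -0.09 within T2 and -1.67 within T5, and by 1.37 with set and genes detected as terms, below the fold.

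At the low end, Serpinb6b, an intracellular inhibitor of serine proteases, had the most negative difference, -2.89. It ran from 0 through a median of 1 TPM to 791 TPM in cells with Pparg, and from 0 through 16.5 TPM to 3998 TPM without. It was at 10 TPM or more in 5 of 21 and 13 of 26 cells, and 61.6% of its total in cells with Pparg came from 1 cell, T4_7. The difference was negative in all 4 sets and was -2.26 with set as a term. Serpinb6b belongs to a family of near copies, so its reads may be shared with them.

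Another 3 low genes kept their sign in all 4 sets. D6Wsu116e, now Washc2, a subunit of the endosomal WASH complex, was detected in 7 of 21 cells with Pparg (33.3%, 14.6 to 57.0) and in 21 of 26 without (80.8%, 60.6 to 93.4), a difference of -2.66 (-2.91 with the set term). Cd81, a tetraspanin of the cell surface, had medians of 47 and 544 TPM and a difference of -2.52, ranging from -6.33 in T3 to -0.24 in T5. Without T3 it was -1.45, below the fold. Its exons overlap those of R74862 on the other strand. Traf1, an adaptor of TNF receptors, had medians of 6 and 146 TPM and a difference of -2.44 (-1.87 with the set term).

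For the other 8 genes at the low end the sign was kept in 3 of 4 sets. Herpud1, induced by ER stress, had medians of 9 and 341 TPM and a difference of -2.63, but of 2.02 within T5. Eif4ebp1, the translation repressor that mTORC1 controls, had medians of 6 and 95 TPM and a difference of -2.55, but of 3.86 within T2, and of -1.41 without T5, below the fold. Akr1c18, a steroid dehydrogenase from a family of near copies, differed by -2.66. Ggct, of glutathione turnover, differed by -2.55, and Atp6v1d, of the proton pump of acidic organelles, by -2.47. The transcription factor Atf1, which has a pseudogene copy, differed by -2.38, or -1.48 without T4, below the fold, and the autophagy receptor Sqstm1 by -2.35. Actl6a, of the BAF chromatin remodelling complex, differed by -2.34, and by -1.35 with set as a term, below the fold. The exons of Sqstm1 and Actl6a overlap those of Mrnip and Mrpl47 on the other strand.

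Of these 24 genes, 9 had the same sign in all 4 sets, 23 stayed past the fold with set as a term, and 22 with set and genes detected as terms. Without its single highest cell each of the 24 stayed past the fold. Since the genes were chosen for large differences in these cells, these counts describe them and support nothing further.

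Across 54 cells, the 7 intermediate cells included, the genes whose level ranked most like that of Pparg were Arl6ip1 and Bcap29 (Spearman rho 0.53 each), Nsmce4a (0.50), Tmem50a (0.49), Cdk1 (0.48) and Nefh (0.47). The rho values carry no p. The cells share the 0 values of Pparg, and the same cells made the groups. Arl6ip1, which shapes ER tubules, was above 0 in every cell with Pparg, from 58 through 605 to 2018 TPM, with medians of 94.5 TPM and 605 TPM without and with Pparg. Tmem50a, a membrane protein, had medians of 190 and 464 TPM, and Nefh, a neurofilament subunit, of 0 and 40 TPM. Arl6ip1, Tmem50a and Nefh each had a positive difference in all 4 sets.

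Inside the 21 cells with Pparg, the level of most of these genes did not follow that of Pparg closely. Mrpl40 had a rho of 0.67 with Pparg, Snap23 of 0.53, Nsmce4a of 0.48, Yipf5 of 0.47 and Serpinb6b of -0.40. Cdk1 had a rho of 0.18: its mean log2 level was 5.21 in the 10 cells below the median Pparg value and 5.32 in the 10 above it, against 1.80 in cells without Pparg. The Cdk1 level in cells with low and with high Pparg was thus nearly the same.

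The partners of PPARγ were measured in part. Of 25 genes listed as receptors and coregulators, 20 were in the table and 18 were compared: 1 was past the fold, Tbl1xr1, a subunit of the NCoR corepressor complex and an exchange factor for it. Tbl1xr1 had medians of 30 TPM with Pparg and 1.5 TPM without, a difference of 1.68, and was higher in all 4 sets. It was 1.19 without T4, 1.38 without T5 and 1.48 without its highest cell, all below the fold. A count of 1 in 18 is near the share over all genes, 2.98% higher and 1.72% lower. The median difference of the 18 genes was 0.23, against 0.06 over all genes. Rxra, the RXR partner, was detected in 10 of 21 and 15 of 26 cells, up to 52 and 81 TPM, with a difference of -0.16. Rxrb was detected in 6 and 4 cells. The corepressor Ncor1 (0.62), its subunit Tbl1x (1.19), and the coactivators Med1 (0.20), Ncoa3 (0.41) and Crebbp (0.38) were all within the fold. Ppara, Ppard and Rxrg were not compared here.

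Of 34 genes known as PPAR targets in fat and other tissues, 20 were in the table and 13 were compared: 0 were past the fold on the higher side and 1, Ech1, on the lower. Shares of 2.98% and 1.72% over all genes give counts as small in a list of this size. Their median difference was 0.16, and -0.24 with set as a term, so its sign turned. Ech1, an enzyme of fatty acid oxidation, had medians of 10 TPM with Pparg and 109 TPM without, a difference of -1.85 that was -1.28 with set as a term and -1.02 without T5, both below the fold. Fabp5, the fatty acid binding protein of lymphocytes and skin, had medians of 265 and 135.5 TPM and a difference of 0.19. Ucp2, a mitochondrial carrier, was detected in every cell of both groups, with medians of 438 and 312 TPM and a difference of 0.64. Acadl, a dehydrogenase of long-chain fatty acids, differed by 1.26 and Abcg1, a cholesterol exporter, by -1.20, or -1.74 with set as a term, past the fold. Plin2, Acsl1, Cpt1a and Abca1 were in the table but detected in fewer than 10 of the cells, so their levels were not compared.

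Lipid synthesis gave 2 genes past the fold out of 16 compared, both elongases of fatty acids and both higher with Pparg, beside 2.98% of all genes on that side. Elovl5, which elongates polyunsaturated fatty acids, was detected in 13 of 21 and 9 of 26 cells, with medians of 7 and 0 TPM. Its difference was 1.98 (2.30 with the set term) and was positive in all 4 sets. Elovl1, which makes very long chains, had medians of 211 and 80 TPM, a difference of 1.55 (2.16 with the set term) and a positive sign in 3 of 4 sets. It was 0.67 without T3, 1.45 without T4 and 1.28 with genes detected as a term, all below the fold. Fasn (-0.22) and Acly (-0.40), which make fatty acids from acetyl-CoA, were within the fold, and the median of the list was 0.06, or -0.15 with the set term. Of 9 genes of fatty acid oxidation and 17 of sterol synthesis none was past the fold, beside 2.98% and 1.72% of all genes. Their medians were -0.08 and 0.21. Under the set term the medians were 0.20 and 0.26. Then 1 gene of each list was past the fold on the higher side, beside 5.26% of all genes: Echs1 (1.72), of fatty acid oxidation, and Ebp (1.54), of sterol synthesis. Among 8 other nuclear receptors Nr2c2, the orphan receptor TR4, was lower by the rule of size (-1.52), but was at -1.15 with set as a term, -0.70 without T1 and -0.88 without T3.

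**Figure D3:**
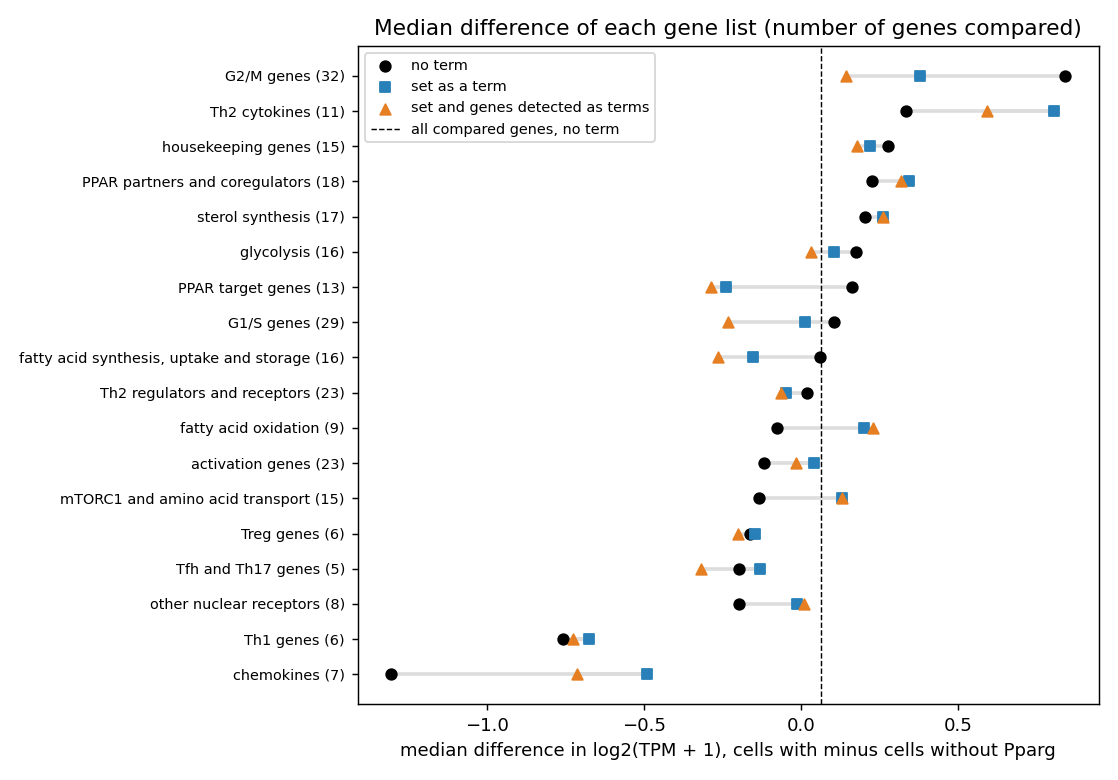
Median difference in log2(TPM + 1), cells with minus cells without Pparg, of the compared genes of each of 18 lists, with no term, with set as a term, and with set and genes detected as terms; the dashed line is the median of all 7206 genes, 0.06. The G2/M list lies highest without a term at 0.84 and is at 0.14 with both terms, and the chemokines lie lowest at -1.30.

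All 11 Th2 cytokine genes of the list were compared. Of them 2 were past the fold, Il5 and Il10, both higher with Pparg, beside 2.98% of all genes on that side. Il5, the cytokine that sustains eosinophils, was rare. It was detected in 7 of 21 cells with Pparg (33.3%, 14.6 to 57.0) at 1, 448, 2178, 3290, 3538, 3641 and 3732 TPM. It was detected in 4 of 26 cells without Pparg (15.4%, 4.36 to 34.9) at 4, 4, 295 and 338 TPM. The shares of cells overlapped in their intervals, while the 6 highest cells all had Pparg. The difference of Il5 was 2.42, with 1.64 under the set term and 1.40 with both terms, below the fold. The cells with Pparg at 10 TPM or more of Il5 were 1 in T2, 2 in T3 and 3 in T5. Within T5, where 1 of the 2 cells without Pparg also had it, the difference was -0.51, and within T4, where 0 of 4 cells with Pparg and 3 of 8 without had it, it was -1.63. The sign was thus kept in 2 of 4 sets. The exons of Il5 overlap those of Gm12214 on the other strand.

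Il10, an anti-inflammatory cytokine that Th2 cells also make, was detected in all 21 cells with Pparg, from 5 through 780 to 23652 TPM. In cells without Pparg it was detected in 22 of 26, from 0 through 597.5 to 4866 TPM. The medians were close, and the other 4 cells without Pparg were listed at 0. The difference was 1.89, but 1.19 with set as a term, 0.80 with both terms, 1.32 without T1, 1.23 without T5 and 0.39 as a difference of medians, all below the fold. The signature cytokines Il4 and Il13 were within the fold. Il4 had medians of 434 and 391 TPM (difference 0.21) and Il13 of 1 and 1 TPM (0.46), with detection in 11 of 21 and 14 of 26 cells. The median of the 11 genes was 0.33, and 0.81 with set as a term. Under that term 4 genes were past the fold on the higher side, beside 5.26% of all genes: Il24 (2.08), Il3 (1.68), Il5 (1.64) and Areg (1.61). Without the term Il24 differed by 0.92, Il3 by 0.36 and Areg by 0.09.

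Of 23 regulators and receptors of the Th2 state 0 were past the fold in either direction, beside 2.98% and 1.72% of all genes, and their median was 0.02 (-0.05 with the set term). Gata3, the lineage-defining factor, was at 221 through 800 to 2178 TPM with Pparg and at 253 through 1021.5 to 1758 TPM without, a difference of -0.05 (-0.13 with the set term). Its ranges nearly coincided. Stat6, which relays the IL-4 signal, differed by 0.50, Irf4 by -0.53, Maf by -0.03 and Batf by -1.04. Il1rl1, the receptor for IL-33, was detected in 12 of 21 and 9 of 26 cells, differed by 0.86 and was higher in all 4 sets. The chemokine receptors Ccr8 (0.37) and Ccr4 (-0.69) went different ways. With set as a term Nfil3, a factor known from type 2 cytokine regulation (-2.26), and Notch1 (-1.71) were past the fold on the lower side. Without the term they were at -1.43 and -1.44.

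Lists of other T cell fates were small, and without a term none of their genes was past the fold, beside 2.98% and 1.72% of all genes. Of 6 compared Th1 genes the median was -0.76. The lowest was Stat4, a relay of the IL-12 signal, which was detected in 3 of 21 and 10 of 26 cells and was negative in all 4 sets. It differed by -1.45, and by -1.83 with set as a term, past the fold. Of 6 regulatory T cell genes the median was -0.16. Foxp3, their defining factor, was too rare to compare. Of 5 genes of follicular helper and Th17 cells none was past the fold.

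Of 23 activation genes 1 was past the fold, on the lower side (1.72% of all genes): Tnf, the cytokine made soon after T cell receptor stimulation. Tnf was detected in 6 of 21 cells with Pparg, up to 45 TPM, and in 13 of 26 without, up to 1146 TPM. It was at 10 TPM or more in 1 cell with Pparg and in 10 without. The difference was -2.16 and was -1.74 with set as a term. Of the 10 cells 6 were in T2, and without that set the difference was -0.93, below the fold. The sign was not negative in T3 and T5. In T3 Tnf was detected in 2 of 5 cells with Pparg, at 4 TPM, and in 0 of 4 without. In T5 it was detected in 4 of 9 cells with Pparg, up to 45 TPM, and the 2 cells without had 0 and 1 TPM. Under the set term Cd40lg (1.79) and Tnfsf11 (1.91), ligands of the TNF family, were past the fold on the higher side. Other genes of stimulation overlapped widely: Il2ra differed by 0.48, Cd44 by -0.03, Nfkbia by -0.12 and the costimulatory receptor Tnfrsf4 by 0.25, the last at medians of 9500 and 9078.5 TPM.

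The chemokines had the lowest median of the lists, -1.30 over 7 genes, with 3 past the fold on the lower side, where 1.72% of all genes lay: Ccl4 (-1.74), Ccl1 (-1.67) and Ccl3 (-1.64). Ccl1, the ligand of CCR8, had medians of 1926 TPM with Pparg and 9253 TPM without, and was detected in nearly every cell. Ccl3, an inflammatory chemokine, was detected in 3 of 21 and 11 of 26 cells. With set as a term the median was -0.49 and none of the 3 was past the fold (Ccl4 -0.49, Ccl1 -1.28, Ccl3 -0.82), while Cxcl3, a neutrophil attractant, was higher by 2.60. Without T2 the differences of Ccl4 and Ccl1 were -0.32 and -0.67, and without T5 that of Ccl3 was -1.31. Ccl1 was below the fold without T1 or T5 too, and lowest in size without T2.

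The G2/M list held Cdk1, which had the largest difference of all 7206 genes and so was bound to lie above its companions. Its contrast with them describes these cells and supports nothing further. Of 32 compared G2/M genes 6 were past the fold, all higher with Pparg, where 2.98% of all genes lay: Cdk1 (3.53), Ckap2 (1.92), Birc5 (1.91), Tpx2 (1.77), Kif20a (1.65) and Kif23 (1.62), which build or drive the mitotic spindle and cell division. The median of the list was 0.84, against 0.06 over all genes. Leaving out 1 set took each of these other than Cdk1 below the fold: Ckap2 (1.07) and Kif20a (1.04) without T5, Birc5 (1.44) without T3, and Tpx2 (1.41) and Kif23 (1.02) without T4. Below it were also Tpx2 (1.49) without T5, Kif20a (1.46) without T1 and Kif23 (1.30) without T3. With set as a term the median was 0.38. Past the fold were then 2 of the 32 genes, Cdk1 (3.46) and Kif20a (1.73), beside 5.26% of all genes on the higher side. A count of 2 in 32 is near that share. With set and genes detected as terms the median was 0.14. Of the 35 G2/M genes in the table, cells with Pparg had 2 to 33 detected with a median of 21, and cells without had 1 to 33 with a median of 7.5.

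Within sets the G2/M list did not go 1 way. The mean log2 level of its 32 genes, Cdk1 included, cells with minus cells without Pparg, was positive in T3 (1.21) and T4 (2.24) and negative in T1 (-1.19), T2 (-1.42) and T5 (-0.31), against an SD of 1.97 over cells within the groups. The mean of Cdk1 was higher with Pparg in each of these sets, but T1, T2 and T5 had few cells of 1 group. In T1 the 1 cell with Pparg had 25 TPM, and the cells without had up to 17 TPM. In T2 the 2 cells with Pparg had 0 and 300 TPM, and 3 of 8 without had Cdk1, up to 378 TPM. In T5 the 2 cells without Pparg had 0 and 101 TPM. Mki67, the proliferation marker, had medians of 2 and 0 TPM and a difference of 1.05, or 0.28 with both terms. Ccnb1 (0.42) and Ccnb2 (1.10), the cyclins that pair with Cdk1, and Plk1 (-0.31) and Aurkb (-0.13), kinases of mitosis, were within the fold. Of 29 G1/S genes none was past the fold, beside 2.98% and 1.72% of all genes, and their median was 0.11. Fitted with the set, Mcm4 (1.52) was past it on the higher side and Tk1, thymidine kinase (-1.93), on the lower. Mcm4, of the replicative helicase, differed by 1.07 without the term and its partners Mcm3 and Mcm7 by -1.22 and -1.49.

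**Figure D4:**
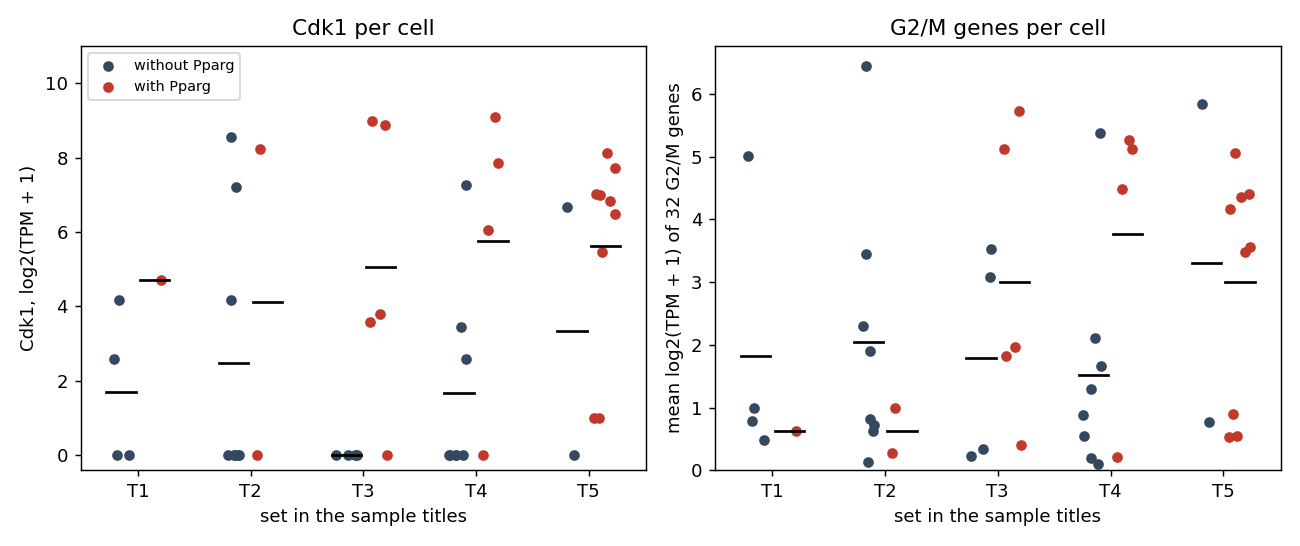
Cdk1 level (left) and mean log2(TPM + 1) of the 32 compared G2/M genes (right) in each cell by set; points are cells without (dark) and with Pparg (red) and the dash is the mean of each group. The mean of Cdk1 is higher with Pparg in each set, while that of the G2/M list is higher in T3 and T4 and lower in T1, T2 and T5. T1 holds 1 cell with Pparg, T2 holds 2, and T5 holds 2 cells without.

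Of 16 glycolysis genes none was past the fold (median 0.17), beside 2.98% and 1.72% of all genes. Under the set term Tpi1, triose phosphate isomerase, was past it on the lower side (-2.08, and -1.02 without the term). Levels were close for Aldoa at medians of 1919 and 1942 TPM and for Ldha at 1118 and 845 TPM. Of 15 genes of mTORC1 and amino acid transport 1 was past the fold, Eif4ebp1, described above. The glutamine transporter Slc38a1 differed by 1.03, and by 2.14 with set as a term, with a positive sign in all 4 sets. Of 15 housekeeping genes 2 were past the fold, both on the higher side, beside 2.98% of all genes. They were Tbp (1.67) and Gusb (1.52), both listed at 0 in many cells of both groups. Tbp was at 1.20 without T2 and 0.99 without T4, and Gusb at 0.87 without T3 and 1.36 without T5, all below the fold. The median of the 15 housekeeping genes was 0.28, above that of the PPAR partners. Rplp0 (-0.07), B2m (0.32) and Ywhaz (0.18), which were detected in every cell, had small differences.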

How the data were processed

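The deposited values are a score: whole numbers that the authors made by rounding TPM, with column sums of 999202 to 999914. The submitters' processing notes name FastQC, Cufflinks and Bowtie 0.12.2, and mm9 as genome build; the step each tool served is not given there. A pooled sample of 10000 cells was not used here. The table held 10565 genes: 9501 symbols were current in the GRCm38.p6 annotation, 949 were older names and 115 were not matched.

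Levels were compared as log2(TPM + 1) with Python 3.11.15, numpy 2.4.6, pandas 2.3.3 and scipy 1.17.1. Detection was 1 TPM or more, and genes detected in at least 10 of the 47 cells were compared. Terms for set and genes detected were fitted by least squares. The computation was checked on the deposited values shuffled within sets, with known differences added. Such a check shows only that the computation returns an added difference. The named genes were the 12 largest and 12 smallest differences, the 6 highest rho with Pparg, the members of 18 lists past the fold, and up to 4 others per list of highest mean level; of the lists of Th2 cytokines, Th2 regulators, PPAR partners and PPAR targets any member could be named. Compared list members outside this rule (Aurkb, Ccnb1, Ccnb2, Cd40lg, Cd44, Ebp, Fasn, Il2ra, Mcm4, Mcm7, Mki67, Nfkbia, Plk1, Slc38a1, Stat4, Tk1, Tnfsf11 and Tpi1) were chosen after their values were seen. The cells, lists and rule were chosen with earlier results of these data known. Alternatives covered the pseudocount, the gene filter, the Pparg limit, the 2 cells left out, set, genes detected, each set, the highest cell, scaling, medians and the fold. One Th1 gene is not reported here.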

Additional observations from a re-analysis of the deposited data

How the results depend on the processing

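The counts of genes past the fold moved with the settings. The main counts were 215 higher and 124 lower. With a pseudocount of 10 they were 14 and 14, with differences of medians 748 and 470, with a fold of 1 on the log2 scale 684 and 462, and with a fold of 2 they were 49 and 34. With Pparg from 100 TPM they were 365 and 293. With Pparg from 1 TPM the lower count was 73, and with the cells T3_2 and T3_5 kept it was 76. With set as a term the higher count was 379, and with set and genes detected as terms the lower count was 245. Without T2 the higher count was 385. Without T5 the counts were 334 and 244. The lower count was 211 without T3 and 214 without T4. Leaving out 1 set at a time gave 253 to 385 higher and 143 to 244 lower. Of 41 named genes followed over 17 alternatives, 36 had a value in every one, and among the 686 values there were 0 of opposite sign and 2 of 0 (Il5 and Ccl3, difference of medians). Il5 had too few cells for a value without T3, T4 or T5. Of the genes, 10 stayed past the fold in every one: Cdk1, Icam2, Adk, 2700094K13Rik, Bcap29, Snap23, Serpinb6b, Akr1c18, Herpud1 and Traf1. The 41 genes were chosen for large differences in these cells, and the alternatives reuse most of the cells. Keeping the sign or the fold therefore describes these genes and supports nothing further. Of the 24 genes at the 2 ends, 9 had the same sign in all 4 sets, and Adk, 2700094K13Rik, Snap23, Akr1c18 and Herpud1 did not. Of all genes past the fold, 35.8% on the higher side and 31.5% on the lower kept theirs. The cause of the shifts in the counts was not tested. The set number is shared between the groups, and the fit with set as a term is the comparison blocked by it. Sequencing depth per cell cannot be read from TPM, and a 0 may be a lost transcript.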

Other observations

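The 7 cells with Pparg above 0 and under 10 TPM entered neither group. Their mean log2(TPM + 1) of Cdk1 was 5.17, close to the 5.33 of the cells with Pparg and above the 1.80 of the cells without. For Bcap29 it was 6.61, against 7.27 and 4.56. For Icam2 it was 1.88, nearer to the 1.63 of the cells without Pparg. For Serpinb6b it was 6.96, above both groups (2.04 with Pparg and 4.93 without), and for Ccl1 it was 14.35, again above both (8.92 and 10.60). These cells came from T1 (3 cells), T2 (2), T3 (1) and T5 (1), and nothing was tested on them.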
